A study of Mus musculus with 3 samples.

Results

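Mouse prostate organoids treated with UK5099 were set directly against organoids treated with sodium lactate, gene by gene, by the accessibility of the chromatin around each gene. A gene entered when its average peak height was above 0 in both libraries and when its mean height over the UK5099, lactate and vehicle libraries was 36 or more, which held for 14198 of the 18890 genes in the deposited table. The UK5099 height was divided by the lactate height, and that ratio was divided by the median ratio of all genes, 0.983, so that 1 stands for the typical gene. A gene was counted as higher in UK5099 at a ratio of 1.5 or more and as lower at 1/1.5 or less. Vehicle entered only the height filter and is shown beside the treated libraries for orientation.

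The study asked how blocking mitochondrial pyruvate uptake, or supplying lactate from outside, alters chromatin in the prostate epithelium. Wildtype organoids grown from basal cells of the mouse prostate were kept for 7 days with 10 µM UK5099, with 20 mM sodium lactate or with vehicle, and each condition was profiled once by ATAC-seq, an assay that reads out open chromatin from the places a transposase can cut and tag. Each side therefore held 1 library, no difference has a replicate check, and no test between the conditions could be made. In organoids, which hold a mixture of basal and luminal cells, fewer cells of a type and less open chromatin per cell cannot be told apart.

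UK5099 inhibits the mitochondrial pyruvate carrier, a pair of inner membrane proteins, Mpc1 and Mpc2, that bring pyruvate from the cytosol into the matrix for oxidation. Pyruvate that stays in the cytosol can be reduced to lactate by lactate dehydrogenase, and lactate crosses membranes through monocarboxylate transporters. Sodium lactate in the medium raises lactate without blocking the carrier, so the direct comparison sets a block of pyruvate entry against a load of its reduced product. In the prostate, basal cells carry Krt5, Krt14 and Trp63, whereas luminal cells carry the simple keratins Krt8 and Krt18 and secretory and apical junction genes.

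The height of a gene reflects the reads stacked at the top of a peak, averaged over all merged regions assigned to the gene. Heights are scaled per library, so that 1 stacked read counts as 1 in UK5099, 0.471 in lactate and 0.575 in vehicle. The median height over all genes was 58.7 in UK5099, 60.3 in lactate and 51.3 in vehicle. The UK5099 library was the shallower, with a depth of lactate 2.12 times its own, and the median gene that passed the filter had 198 stacked reads in UK5099 and 429 in lactate. Ratios are given with 95% exact (Clopper-Pearson) intervals from these stacked reads, which cover counting error only. The basal gene Krt5 had heights of 77.7, 74.9 and 58.8 in UK5099, lactate and vehicle, and Krt14 had 63.0, 55.1 and 42.2. Both loci had called peaks in UK5099 and in lactate. The luminal gene Krt8 had 74.0, 96.8 and 90.3, so these heights do not check the basal label. Signal was also present at genes that mark other cell types. Of those markers 5 stromal, 5 endothelial, 6 immune and 4 neuroendocrine genes passed the height filter, and 1 of these 20, Vwf at a ratio of 0.646, was past a threshold.

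Most genes had the same relative height under both treatments to within 1.25-fold, 81.6% of those that passed the filter. In all, 228 genes passed the upper threshold and are called higher in UK5099, 1.61% of the genes compared, and 316 passed the lower threshold, 2.23%. The other 13654 genes, 96.2%, lay between the thresholds. The middle 90% of ratios ran from 0.738 to 1.32, and the extremes were 0.264 and 3.10. The counting interval excluded 1 for 228 of the 228 higher genes and for 313 of the 316 lower genes. These genes were chosen on the same heights that give the intervals, so that exclusion follows largely from the thresholds and tests nothing. The interval lay wholly beyond the threshold for only 30 higher and 47 lower genes. At the upper threshold Ndufa4, a respiratory chain subunit, lay just inside at 1.501 and Ankfy1 just outside at 1.498. At the lower threshold Eva1a lay just inside at 0.6663 and Gstk1 just outside at 0.6669.

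**Figure D1:**
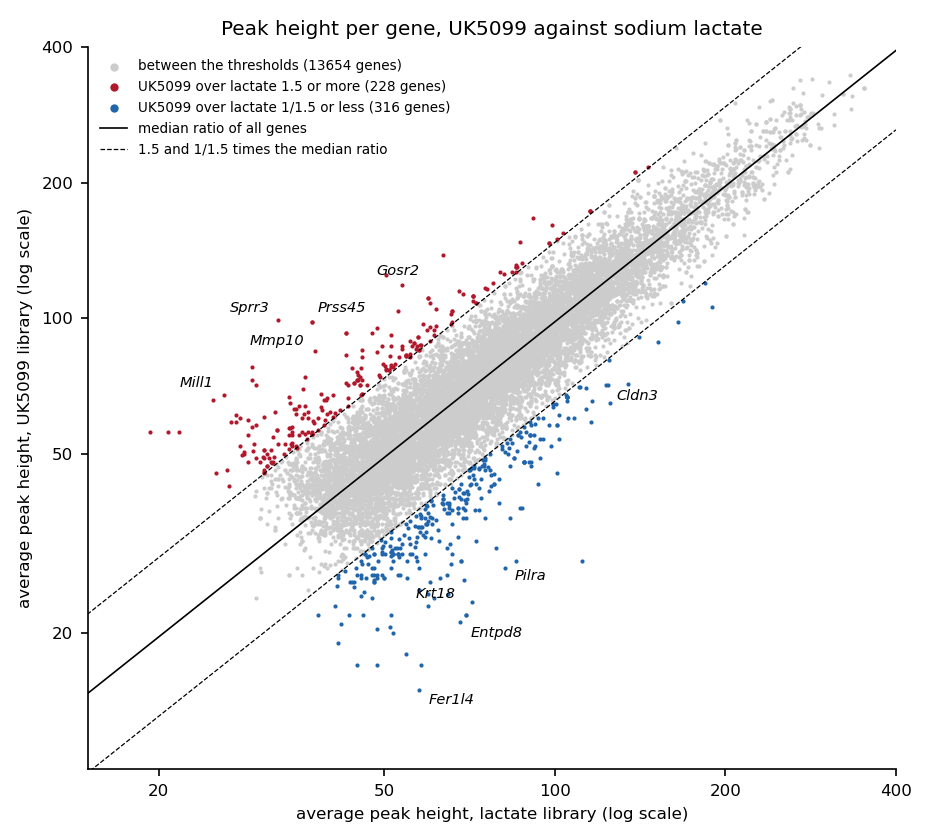
Average peak height of each of the 14198 genes in the UK5099 library (vertical, log scale) against the lactate library (horizontal, log scale), with the median ratio as a solid line and 1.5 and 1/1.5 times that ratio as dashed lines. The 228 genes higher in UK5099 and the 316 lower genes lie mostly at low heights, and above about 200 in both libraries nearly every gene sits close to the median line.

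Genes past a threshold were weak peaks. Their median of the mean height was 52.5 for the higher and 50.7 for the lower genes, against 69.3 for genes between the thresholds. In the 20% of genes with the lowest heights 3.41% were higher and 4.82% lower, whereas in the 20% with the highest 0.493% were higher and 0.246% lower. A single merged region stood behind 50.9% of the higher and 40.2% of the lower genes, against 21.7% of those between. For such genes the height is that of 1 peak, and the position of the peak can be read from the table.

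The sequences of 7 peaks are shown because large single-region differences and the caspase cluster rest on 6 of them, and because the Krt18 window is the called peak that both treated libraries have at that luminal keratin gene. They are windows of 200 bases around the peak position, read from the plus strand of GRCm38.p6, the RefSeq copy of the mm10 build, and matches to the AP-1 motif TGANTCA on either strand are in capitals. Higher in UK5099 were the only regions of Sprr3 at chr3:92455165-92455364, of Prss45 and its neighbour Prss46 at chr9:110849309-110849508, of Gimap8 at chr6:48647965-48648164 and of Casp12 at chr9:5356925-5357124. Lower in UK5099 were the only regions of Fer1l4 at chr2:156052893-156053092 and of Cuzd1 at chr7:131303453-131303652, and the peak at the start of Krt18 at chr15:102028125-102028324 belongs to 1 of the 3 regions over which its lower height is averaged. The Sprr3 and Cuzd1 peaks lie outside the genes they were assigned to, 3456 and 18740 bases downstream of the gene starts. The Gimap8 and Casp12 peaks lie inside those genes, the Prss45 peak lies inside Prss46, 130 bases from an annotated start, and the Fer1l4 and Krt18 peaks lie at the gene starts. The 4 higher windows and the Fer1l4 window hold at least 1 match to the motif, and the Cuzd1 and Krt18 windows hold none.
Sprr3: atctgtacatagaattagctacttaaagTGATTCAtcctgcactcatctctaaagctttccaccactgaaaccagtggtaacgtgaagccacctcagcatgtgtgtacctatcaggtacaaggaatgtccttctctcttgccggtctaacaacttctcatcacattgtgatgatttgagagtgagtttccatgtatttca
Prss45: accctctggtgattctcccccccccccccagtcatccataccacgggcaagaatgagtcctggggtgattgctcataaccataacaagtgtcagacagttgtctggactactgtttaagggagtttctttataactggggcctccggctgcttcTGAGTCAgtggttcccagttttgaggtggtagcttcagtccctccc
Gimap8: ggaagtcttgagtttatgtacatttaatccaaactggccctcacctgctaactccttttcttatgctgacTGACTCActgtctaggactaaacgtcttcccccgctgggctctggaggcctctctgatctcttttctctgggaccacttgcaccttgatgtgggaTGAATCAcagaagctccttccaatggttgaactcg
Casp12: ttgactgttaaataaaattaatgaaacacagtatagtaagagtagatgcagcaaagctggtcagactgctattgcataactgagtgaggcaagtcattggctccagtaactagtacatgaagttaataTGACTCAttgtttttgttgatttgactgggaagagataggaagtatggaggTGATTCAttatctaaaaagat
Fer1l4: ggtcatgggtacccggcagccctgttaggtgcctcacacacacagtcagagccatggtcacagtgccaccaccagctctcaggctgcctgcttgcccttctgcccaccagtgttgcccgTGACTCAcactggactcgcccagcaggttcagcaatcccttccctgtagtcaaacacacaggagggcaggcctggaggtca
Cuzd1: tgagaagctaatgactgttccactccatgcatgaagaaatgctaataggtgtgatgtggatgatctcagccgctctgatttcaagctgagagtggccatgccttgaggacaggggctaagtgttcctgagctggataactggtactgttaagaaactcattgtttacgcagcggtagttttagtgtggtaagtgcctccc
Krt18: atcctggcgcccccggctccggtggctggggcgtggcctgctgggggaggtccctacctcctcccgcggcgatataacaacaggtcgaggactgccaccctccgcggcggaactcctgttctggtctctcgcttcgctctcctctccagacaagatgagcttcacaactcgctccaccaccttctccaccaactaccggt

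The gene with the largest ratio belonged to the cornified surface, but the squamous differentiation list as a whole held 1 gene past a threshold among 18, with 0 lower, against 1.61% higher and 2.23% lower over all genes. Sprr3, a small proline-rich protein of the cornified envelope, had a height of 99 in UK5099, against 32.5 in lactate and 28.7 in vehicle, a ratio of 3.10 (interval 2.26 to 4.28). Its peak lay 3456 bases downstream of the gene start, beyond the gene end, and was called in UK5099 and in lactate at the same position. Kprp, the keratinocyte proline-rich protein encoded in the same epidermal differentiation complex of chromosome 3, had 71.0 in UK5099, against 29.7 in lactate and 19.5 in vehicle, a ratio of 2.43 (1.71 to 3.47). At Sprr3 lactate lay close to vehicle, and at both genes UK5099 was the highest library. Zfp750, a zinc finger factor of epidermal differentiation, had 97.3 in UK5099, against 65.5 in lactate and 45.8 in vehicle, a ratio of 1.51 (1.30 to 1.76). Other genes of the same kind lay between the thresholds, on both sides of 1. Sprr1a at 0.852, Sprr1b at 0.972 and Lor, loricrin, at 0.985 were below 1, each with an interval that includes 1. Crnn at 1.34 (1.14 to 1.56) and Tgm1 at 1.36 (1.23 to 1.52) were above 1. Of the 18 listed genes 11 lay above and 7 below the median gene. Chosen after their values were seen, Serpinb13, a serine protease inhibitor of stratified epithelia, had a ratio of 1.71 and S100a7a, a calcium-binding protein of the skin, a ratio of 1.51.

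Protease genes lay on both sides of the median gene. Mmp10, a secreted matrix metalloproteinase also called stromelysin-2, had 84.5 in UK5099, against 37.7 in lactate and 37.4 in vehicle, a ratio of 2.28 (1.83 to 2.85), and a peak 728 bases upstream of its start was called in UK5099 only. Its neighbour Mmp12, macrophage elastase, had a ratio of 1.56, whereas Mmp7, matrilysin, of the same cluster on chromosome 9, lay on the other side at 0.529 (0.450 to 0.620), with 65.0 in UK5099, 125.0 in lactate and 96.2 in vehicle. Mmp2, Mmp14 and Mmp9, matrix metalloproteinases encoded elsewhere, lay between the thresholds, Mmp2 and Mmp14 both at 0.89 and Mmp9 at 1.36 (1.14 to 1.61). Prss45 and Prss46, serine protease genes, share 1 region with 98.0 in UK5099, 37.2 in lactate and 70.7 in vehicle, a ratio of 2.68 (1.97 to 3.65). Here lactate, not UK5099, stood farther from vehicle on the ratio scale.

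The other named genes on this side had mixed roles. Mill1, which encodes an MHC class I-like molecule, had 67.5, 26.0 and 19.4 in UK5099, lactate and vehicle over 4 regions, a ratio of 2.64 (2.20 to 3.17), with 4 peaks called in UK5099 and 2 in lactate. Gosr2, a SNARE protein of Golgi transport, had 118.3, 53.7 and 69.4 over 3 regions, a ratio of 2.24 (1.93 to 2.61). These genes had 270 and 355 stacked reads in UK5099, against 221 and 342 in lactate. Gimap8, an immune-associated GTPase, had a ratio of 2.54 and Kcnk10, a potassium channel, 2.63. Tslp, an epithelial cytokine, had 65.0, 34.1 and 28.0 in UK5099, lactate and vehicle, a ratio of 1.94 (1.59 to 2.37). Cd5l shared its region and its ratio of 2.21 with Fcrl1, and Olfr432, Armc3, Hist2h4 and Dynap lay between 1.97 and 2.27. At Sprr3, Mill1, Kcnk10, Kprp, Armc3, Tslp, Hist2h4 and Dynap the lactate and vehicle heights were both under 36. These genes passed the height filter only through their UK5099 height, so their place among the higher genes partly follows from the filter.

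Genes lower in UK5099 included Krt18, Pigr and Abcc2, which are known from luminal cells or the apical surface of epithelia, whereas most luminal markers lay between the thresholds. Of 13 luminal markers 1 was lower and 0 higher, with a median of 0.945, and of 11 luminal progenitor markers 2 were lower and 0 higher, with a median of 0.935, against 2.23% lower and 1.61% higher over all genes. Krt18, the luminal keratin that pairs with Krt8, had a height of 26.3 in UK5099, against 69.1 in lactate and 70.1 in vehicle, a ratio of 0.388 (0.301 to 0.494). In UK5099 only the peak at its start was called, 40 bases upstream, whereas lactate had 3 called peaks, 1 at the start, 1 located 10136 bases upstream and 1 located 6632 bases downstream. Pigr, the receptor that carries polymeric immunoglobulins to the lumen, had 26.5 in UK5099, against 62.7 in lactate and 38.5 in vehicle, a ratio of 0.430 (0.314 to 0.58). Abcc2, an export pump of apical membranes, had 22 in UK5099, against 69.7 in lactate and 60.9 in vehicle, a ratio of 0.321 (0.195 to 0.505), from 1 region that lies 57196 bases downstream of its start, inside the predicted gene Gm10768, which has the same values. Krt18 and Abcc2 had lactate close to vehicle and UK5099 apart, whereas for Pigr vehicle lay between the treatments.

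The intervals farthest below 1 belonged to neighbours on chromosome 2. Entpd8, an ectonucleotidase that breaks down extracellular nucleotides, had 21.2 in UK5099, 68.1 in lactate and 49.1 in vehicle, a ratio of 0.317 (0.256 to 0.389) over 5 regions. Noxa1, an activator subunit of NADPH oxidase, had 23.5, 71.5 and 51.6, a ratio of 0.334 (0.278 to 0.4) over 6 regions. Both genes draw on the same peaks, of which lactate had 5 and UK5099 had 1 at Entpd8, so they count as 1 locus. Fer1l4, at a ratio of 0.266 (0.144 to 0.456), had 15 stacked reads in UK5099 against 122 in lactate, and its peak 45 bases upstream of the start was called in lactate and not in UK5099. Cuzd1, named for its CUB and zona pellucida-like domains, had 17.0, 58.0 and 44.3 in UK5099, lactate and vehicle, a ratio of 0.299 (0.168 to 0.498). Of the rest, Oit1, Klhdc7a, Plekhg4, a guanine nucleotide exchange factor, Adrbk2, a kinase of G protein-coupled receptors, Mir692-1, Pilra, an inhibitory immune receptor, and the olfactory receptor gene Olfr372 lay between 0.350 and 0.443. Oit1 had 23.0 in UK5099 and 32.4 in vehicle, so it passed the height filter only through its lactate height.

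**Figure D2:**
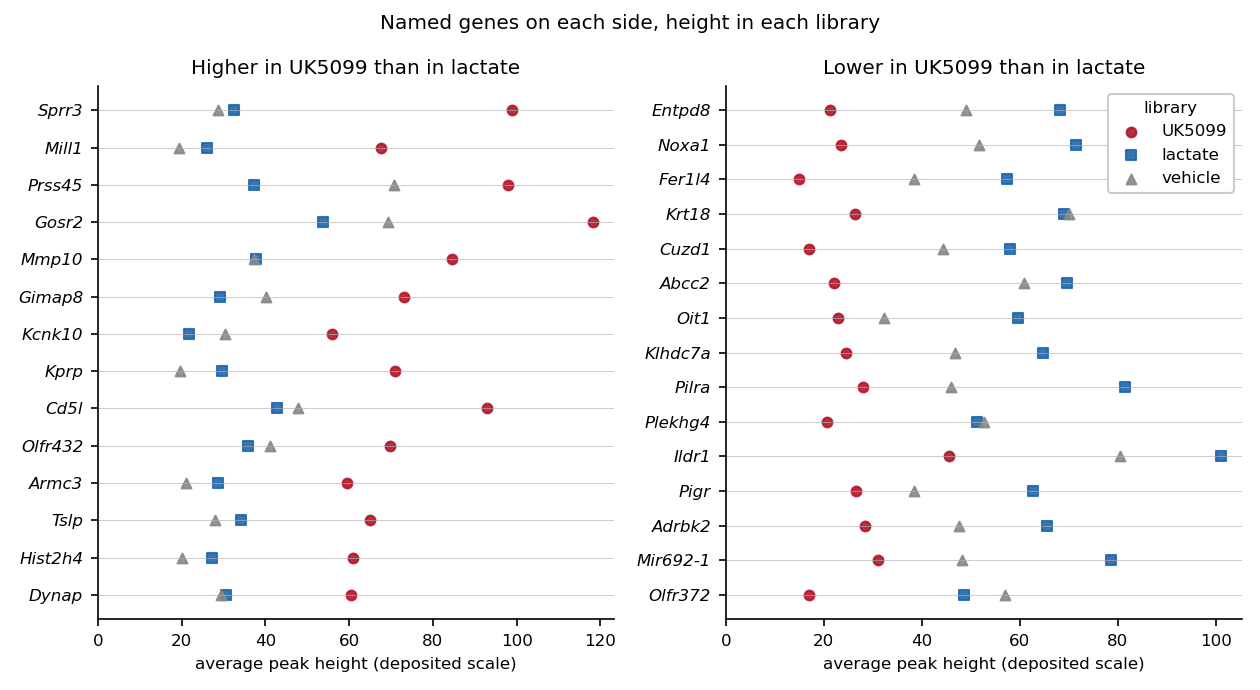
Average peak height (deposited scale) of the named genes higher in UK5099 (left) and lower in UK5099 (right), in the UK5099 (red circles), lactate (blue squares) and vehicle (grey triangles) libraries, 1 point per library. At Sprr3 the UK5099 height of 99 stands apart from 32.5 in lactate and 28.7 in vehicle, and at Krt18 the UK5099 height of 26.3 stands apart from 69.1 and 70.1.

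Of the lineage genes, single luminal members passed a threshold and no basal marker did. Krt8, with heights of 74.0 in UK5099, 96.8 in lactate and 90.3 in vehicle, had a ratio of 0.778 (0.689 to 0.877), and Krt19, with 63.8, 87.3 and 64.4, had 0.744 (0.661 to 0.836). Neither passed the threshold, although both intervals excluded 1. Epcam, the epithelial adhesion molecule, lay between the thresholds at 0.7. The 4 simple keratin genes that passed the height filter had a median ratio of 0.761, against 1 over all genes compared, and Krt23 alone was above 1, at 1.23. On the basal side, Krt14 had a ratio of 1.16 (1.02 to 1.32), Krt5 1.06 (0.943 to 1.18) and Krt15 0.730 (0.623 to 0.853). Krt15 and Krt19 are neighbours that share called peaks. Trp63, the basal transcription factor, had 40.7 in UK5099, 36.2 in lactate and 29.2 in vehicle over 14 regions with a ratio of 1.15 (1.03 to 1.27), and its mean height was just under the filter. Of 21 basal markers 0 were past either threshold, and their median was 1.04.

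Among genes published as higher in CD49f-low luminal cells than in CD49f-high basal cells, 32 passed the height filter, 4 were lower in UK5099 and 1 was higher, against 2.23% and 1.61% over all genes, with a median of 0.890 and 22 of 32 members below the median gene. The 4 were Pigr, the tight junction claudin Cldn3, the growth factor homologue Fgf13 at 0.641 and the ectoenzyme Cd38 at 0.655, and the 1 was the calcium-binding protein Cpne4 at 1.58. The matching basal signature had 14 genes, 0 past a threshold and a median of 1.03. Both signatures are gene lists that the study used, chosen here with earlier results known, and their counts are no independent evidence of direction. Psca, a surface antigen of luminal progenitors, had 40.5 in UK5099, against 63.5 in lactate and 56.0 in vehicle, a ratio of 0.649 (0.541 to 0.775). Psca belongs to a run of 4 adjacent genes of chromosome 15 that were all lower, with Them6 at 0.595, Slurp1, a secreted Ly6 protein, at 0.579 and Lypd2 at 0.566, and these genes share called peaks. Slc45a3, known in prostate as prostein, had a ratio of 0.625.

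Transcription factors of luminal identity lay between the thresholds. Foxa1, a pioneer factor, had 83.6 in UK5099, 87.6 in lactate and 67.8 in vehicle, a ratio of 0.971 (0.863 to 1.09), and Hoxb13, a homeobox factor of the prostate, had 1.15 (0.974 to 1.35). Both intervals include 1. Gata3, a zinc finger factor, had a ratio of 1.22 (1.08 to 1.37), and Cdh1, the epithelial cadherin, had 1.09 (1.02 to 1.17), so these luminal markers lay above the median gene. Prom1, a marker of luminal progenitors, had 28.0, 30.2 and 51.2 in UK5099, lactate and vehicle, a ratio of 0.945 (0.584 to 1.5), so the treated libraries did not differ beyond counting error and both were under vehicle.

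**Figure D3:**
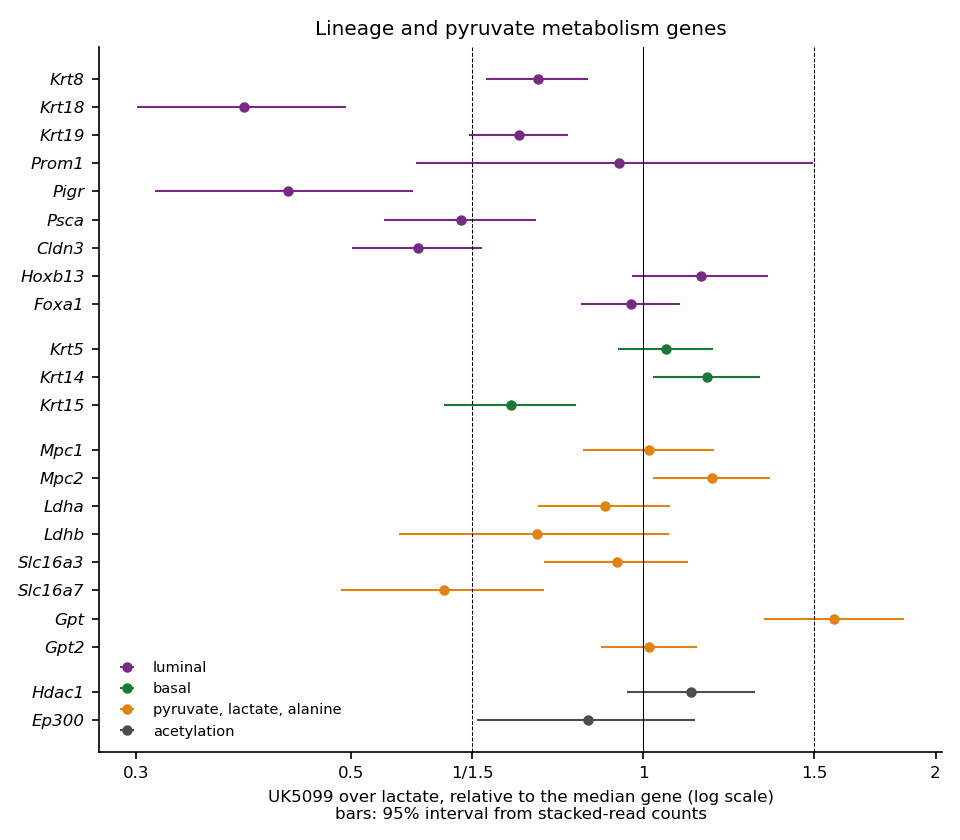
Ratio of UK5099 over lactate relative to the median gene (log scale) for lineage genes and genes of pyruvate, lactate and alanine metabolism that passed the height filter, with 95% intervals from stacked reads. Krt18 at 0.388, Pigr at 0.430, Cldn3 at 0.586, Slc16a7 at 0.624 and Psca at 0.649 lie left of the lower dashed line, and Gpt at 1.57 is the only gene right of the upper one.

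Tight junction and desmosome genes had medians on different sides of the median gene. Of 20 tight junction genes 2 were lower in UK5099 and 0 higher, against 2.23% and 1.61% over all genes, the median was 0.887, and 13 lay below the median gene. Ildr1, which encodes a protein of contacts between 3 cells, had 45.5 in UK5099, against 101.1 in lactate and 80.5 in vehicle, a ratio of 0.458 (0.361 to 0.576). Cldn3 had 71.0 in UK5099, 123.3 in lactate and 106.7 in vehicle, a ratio of 0.586 (0.501 to 0.683), and its neighbour Abhd11 was lower too. The upper end of the list held F11r, an adhesion molecule, at 1.23. The 10 desmosome genes, which anchor keratin filaments between cells, spanned only 0.969 for Pkp3 to 1.16 for Dsg3, with a median of 1.09 and 9 of 10 above the median gene, and 0 passed a threshold. Squamous differentiation genes had a median of 1.12 over 18 genes, with Sprr3 as the 1 member past a threshold and Tgm1, a crosslinking enzyme, next at 1.36, while Ppl, periplakin, was lowest at 0.801. Over the squamous genes with 1 region the median was 0.912, on the other side of the median gene. Of 14 suprabasal and hair keratins, Krt84 at 1.51 was the only one past a threshold.

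Genes of the inflammasome, the complex that activates inflammatory caspases, had the highest median of all lists described, 1.25 over 10 genes, with 4 higher and 1 lower, against 1.61% and 2.23% over all genes. Like the other gene lists, this list was chosen with earlier results of these data known, so its counts are no independent evidence. Casp12, an inflammatory caspase, had 95 in UK5099, against 48.5 in lactate and 44.3 in vehicle, a ratio of 1.99 (1.49 to 2.66). Casp1, the caspase that matures interleukin-1β, lies in the same caspase cluster and had 89.0, 55.6 and 47.1, a ratio of 1.63 (1.22 to 2.16), from a different peak. In UK5099 the peak assigned to Casp1 lay 10315 bases downstream of the gene start and 4 bases from an annotated transcript start. The Casp12 peak lay 11548 bases downstream of its gene start, so neither value is that of a peak at the gene start. The interferon-inducible DNA sensors Ifi204 and Ifi205 had ratios of 2.01 (1.42 to 2.84) and 1.70 (1.32 to 2.19), and Ifi202b of the same cluster, chosen after its value was seen, had 1.67. Aim2, the DNA sensor encoded at the edge of that cluster, went the other way, with 52.0 in UK5099, against 92.3 in lactate and 34.5 in vehicle, a ratio of 0.573 (0.414 to 0.782). Heights were 67.0 in UK5099, 33.9 in lactate and 43.7 in vehicle at Ifi204, and 57.5, 34.4 and 58.9 at Ifi205. At Aim2 lactate stood above UK5099 and vehicle, at Ifi205 lactate stood below both, and at Casp1, Casp12 and Ifi204 UK5099 stood above the other libraries. Of the 5 listed genes past a threshold 4 have 1 region each, so each ratio is that of a single peak.

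Mucosal inflammatory mediators lay partly on the opposite side. Of 27 such genes 4 were lower in UK5099 and 0 higher, against 2.23% and 1.61% over all genes, with a median of 0.971. Here too the list was chosen with earlier results known, and the counts are a description. Nos2, inducible nitric oxide synthase, had 46.0 in UK5099, against 75.4 in lactate and 101.7 in vehicle, a ratio of 0.621 (0.437 to 0.867) from a peak 155 bases upstream of its start. Lyg1, a lysozyme, had 30.0, 53.7 and 92.0, a ratio of 0.569 (0.367 to 0.856), and Il17c, an epithelial interleukin, had 39.7, 63.6 and 85.8, a ratio of 0.635 (0.513 to 0.781). At these 3 genes the heights ran in 1 order, with UK5099 lowest, lactate between and vehicle highest. The remaining lower gene of the list was Pigr, at 0.430, where vehicle lay between UK5099 and lactate instead. Pigr is also counted among the lower luminal progenitor markers and the lower CD49f-low genes. The values of Il17c are also those of its neighbour Cyba, a subunit of NADPH oxidase, because the same regions were assigned to both genes. Of 23 interferon and antigen presentation genes 0 were past a threshold, 17 lay below the median gene and the median was 0.953.

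Among the genes that handle pyruvate and lactate, both carrier subunits lay between the thresholds and 1 lactate transporter was lower in UK5099. Mpc1 had 121.5 in UK5099, 122.0 in lactate and 98.3 in vehicle, a ratio of 1.01 (0.867 to 1.18), and Mpc2 had 317.0, 274.2 and 255.2, a ratio of 1.18 (1.02 to 1.35). Of 15 genes of mitochondrial pyruvate entry and oxidation 0 were past a threshold, with Pdha1, a catalytic subunit of pyruvate dehydrogenase, lowest at 0.749 (0.560 to 0.992) and Pdp1, the phosphatase that activates the complex, highest at 1.18. Ldha, the lactate dehydrogenase subunit A, had 0.913 (0.780 to 1.07) and Ldhb, subunit B, 0.777 (0.560 to 1.06). Slc16a7, which encodes the monocarboxylate transporter MCT2, had 30.3 in UK5099, against 49.5 in lactate and 46.6 in vehicle, a ratio of 0.624 (0.489 to 0.790). Slc16a3, which encodes MCT4, had 0.939 (0.791 to 1.11). Of 14 listed dehydrogenase and transporter genes 8 passed the height filter, and Slc16a7 was the 1 of these 8 past a threshold. Slc16a1, which encodes MCT1, the transporter that the study inhibited in other experiments, was not among the 8. Slc5a8, a sodium-coupled monocarboxylate transporter, had 0.761 (0.608 to 0.947), 6 of the 8 lay below the median gene, and the median of the 8 was 0.926.

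Gpt, alanine aminotransferase 1, which interconverts pyruvate and alanine, had 125.5 in UK5099, against 81.3 in lactate and 53.7 in vehicle, a ratio of 1.57 (1.33 to 1.85). Both its peaks, 1788 bases upstream and 1476 bases downstream of its start, were called in both treated libraries. Lactate lay between UK5099 and vehicle at this gene. Gpt2, the mitochondrial isoenzyme, had 111.0, 111.4 and 77.6, a ratio of 1.01 (0.904 to 1.14). Gpt was the 1 of 16 alanine and glutamine genes past a threshold, while Slc1a5, a glutamine importer, was lowest at 0.686 and the median was 0.921. Enzymes that add, remove or read histone acetyl groups had 0 of 27 past a threshold and a median of 1.01, with Hdac1, a deacetylase, at 1.12 (0.962 to 1.30) and Ep300, an acetyltransferase, at 0.876 (0.674 to 1.13). Tfam, a mitochondrial transcription factor and a gene chosen after its value was seen, had 59.0 in UK5099, against 115.9 in lactate and 77.0 in vehicle, a ratio of 0.518 (0.383 to 0.691).

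The other gene lists held few genes past a threshold, and of all 43 lists 25 held none and 34 had a median within 1.1-fold of the median gene. Of 25 hypoxia genes Bnip3, a mitophagy receptor, was the 1 past a threshold, at 0.642 (0.491 to 0.831), with 38.5 in UK5099, 61.0 in lactate and 58.3 in vehicle. Of 31 cell cycle genes it was Cdkn2a, the locus of the inhibitors p16 and p19, at 1.55 (1.28 to 1.87), with 48.0, 31.6 and 36.9. Of 29 respiratory chain genes it was Ndufa4 at the edge of the threshold. Among 20 p53 pathway genes, 12 AP-1 factor genes, 22 Notch, 22 Wnt, 24 TGF-beta and BMP, 25 citric acid cycle and 22 glycolysis genes 0 passed, and their medians lay between 0.940 and 1.04. Fatty acid and cholesterol synthesis genes and Nrf2 antioxidant genes had medians of 1.002 and 0.9986.

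**Figure D4:**
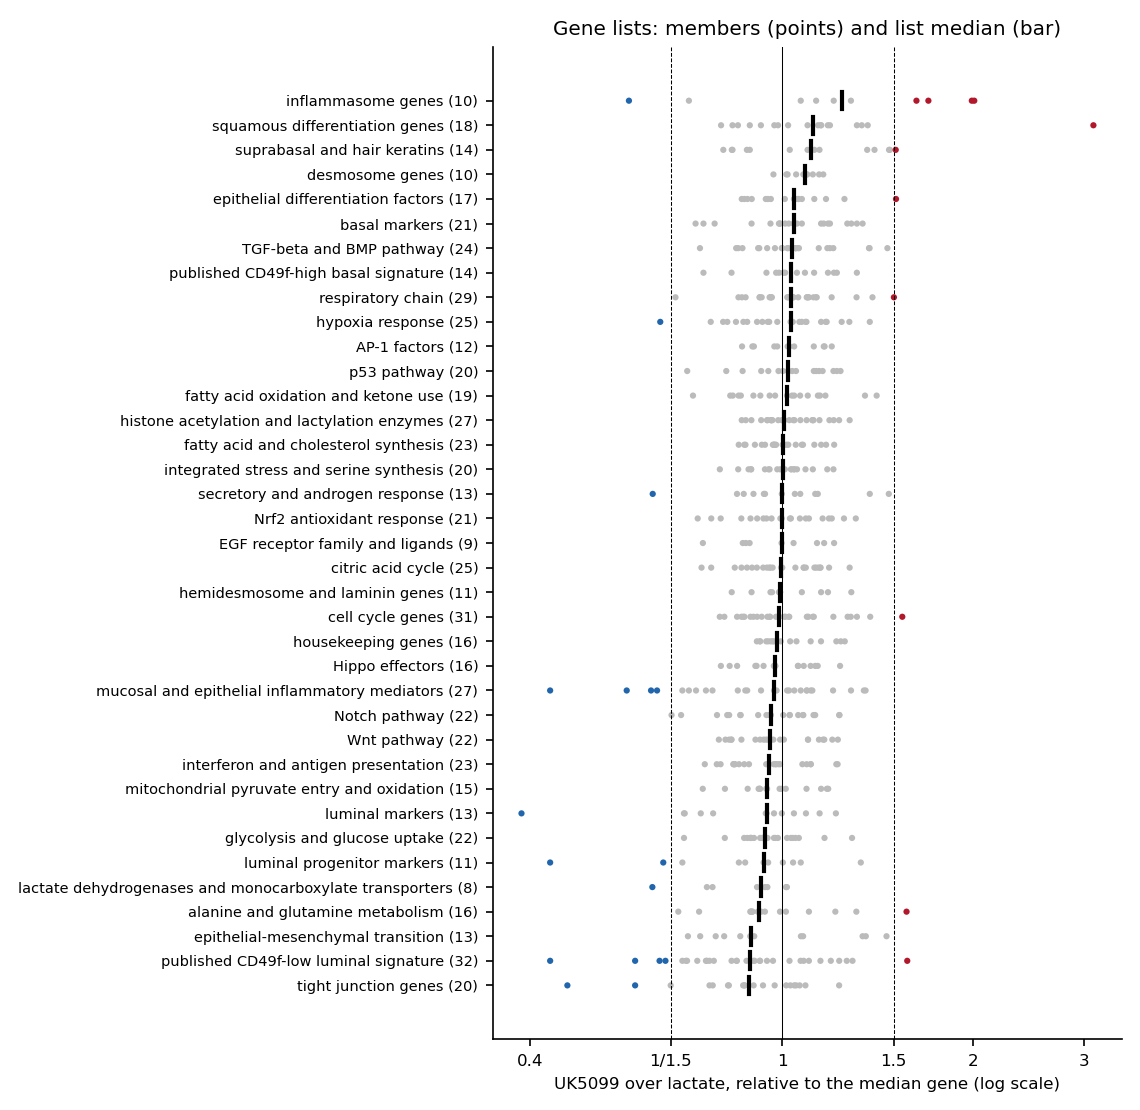
Ratio of UK5099 over lactate relative to the median gene (log scale) for the members of each gene list with 8 or more genes above the height filter (number in brackets), with the list median as a black bar, higher genes in red and lower genes in blue. List medians run from 0.887 for tight junction genes to 1.25 for inflammasome genes, and nearly all members lie between the dashed thresholds.

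To see what the differing regions have in common, genes with 1 merged region were reduced to 2715 distinct regions, of which 101 were higher and 111 lower in UK5099. Within 1 kb of an annotated transcript start lay 56.4% of the higher and 64.0% of the lower regions, against 85.3% of all. Regions farther than 1 kb from a start were past a threshold more often in both directions, 11% higher and 10.0% lower, against 2.46% and 3.07% of regions near a start. Such distant regions were also weaker, with a median of the mean height of 57.5, against 88.3 near a start. The median GC content of the 200-base windows was 51.0% for higher regions and 57.0% for lower regions, against 63.0% for all. In the 20% of regions with the lowest GC content 12.7% were higher and 9.21% lower, whereas in each of the other 4 bins at most 2.21% were higher and at most 3.68% lower. Whether base composition, distance from a start or height alone accounts for these shares was not tested.

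The AP-1 motif, bound by Fos and Jun family dimers, was found in 34.7% of the higher windows and 22.5% of the lower windows, against 10.2% of all 2715. Since the motif is commoner away from starts, the shares were also taken by place. Farther than 1 kb from a start 26 of 44 higher regions held it, 59.1%, and 17 of 40 lower regions, 42.5%, against 38.4% of 315 regions between the thresholds. Within 1 kb of a start it was found in 15.8% of higher and 11.3% of lower regions, against 4.34% of those between. The TEAD motif GGAATG was found in 23.8% of higher windows and 10.8% of lower windows, against 8.55% of all, and the GC-rich KLF and SP motif GGGNGNGGC in 17.8% and 19.8%, against 31.3%. By place, TEAD matches were in 29.5% of higher and 17.5% of lower regions farther than 1 kb from a start, against 15.9% of those between, and in 19.3% and 7.04%, against 6.67%, within 1 kb. Median GC content farther than 1 kb was 47.25% for higher and 50.25% for lower regions, against 52% for those between. Within 1 kb it was 58.5% and 62.5%, against 64.5%. The part of base composition in the motif shares was not tested. Shares for the CTCF motif were 4.95% and 3.6%, against 5.64%. The RUNX motif TGTGGTT was rarer, in 5 higher windows (4.95%) and 9 lower windows (8.11%), against 2.73% of all, and the forkhead motif TGTTTAC was in 3 (2.97%) and 4 (3.6%), against 1.33%. The p53 family motif was in only 5 of all windows, 1 of them higher and 0 lower. For the HOXB13 motif these counts were 27, 1 and 0. Also searched were GRHL (2.97% of higher, 0 of lower and 2.32% of all windows) and ETS (7.92%, 6.31% and 6.15%). The last were AP-2 (13.9%, 20.7% and 18.0%) and NF-Y (29.7%, 24.3% and 34.1%). Motifs were searched on both strands, and a match describes letters and not binding.

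**Figure D5:**
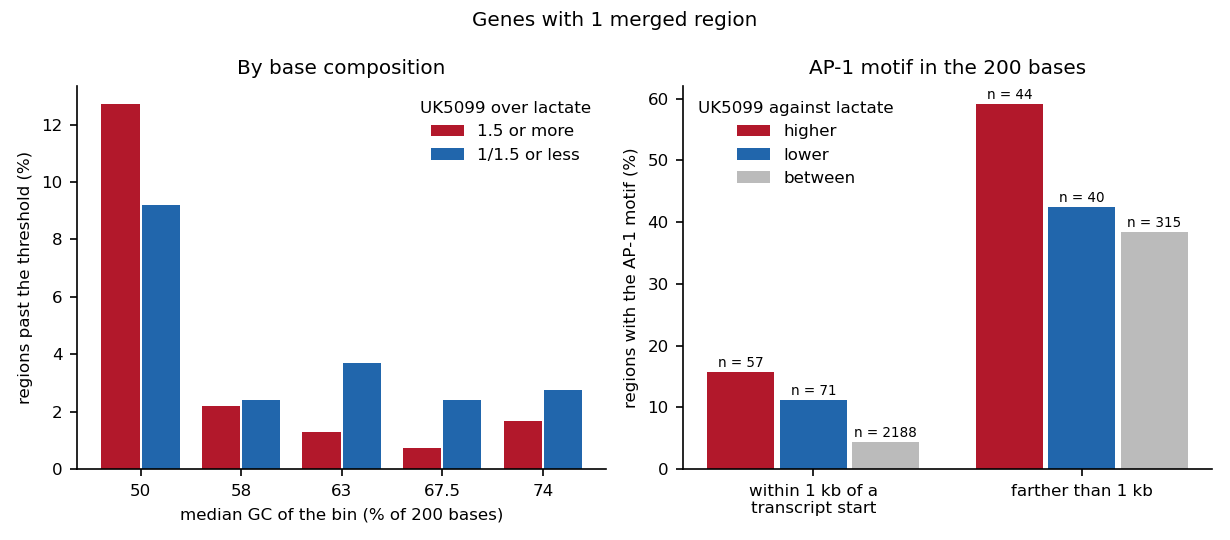
Left, share of the 2715 single regions past each threshold (%) in 5 equal bins of GC content, labelled with the median GC content of the bin. Right, share of regions with the AP-1 motif (%) among higher, lower and intermediate regions by distance to a transcript start. The lowest GC bin has 12.7% higher and 9.21% lower regions, and distant higher regions carry the motif in 59.1% of cases against 38.4% of those between the thresholds.

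The separately called peaks gave a further readout of the same libraries. Assigned to genes were 32375 peaks in UK5099 and 38579 in lactate, and 80.3% of UK5099 peaks had a lactate peak within 150 bases, whereas 67.4% of lactate peaks had a UK5099 peak that near. At the 316 lower genes there were 441 peaks in UK5099 and 593 in lactate, 0.744 UK5099 peaks for each lactate peak, against 0.843 at genes between the thresholds. At the 228 higher genes there were 334 and 330, or 1.01 for each lactate peak. Of the lower genes 24 had no called peak in UK5099 and 2 had none in lactate. Of the higher genes 2 had none in UK5099 and 4 had none in lactate. Peak calls follow the same reads and the shallower UK5099 library, so they are no second measurement.

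Some genes past a threshold had neighbours on the same side. Within 100 kb of each other lay 40 of the 228 higher genes in 15 groups and 79 of the 316 lower genes in 36 groups with distinct values. The matching share of all genes was not taken, so whether such neighbours are frequent was not tested. In 11 of the 15 and 27 of the 36 groups, genes shared a called peak, so that 1 region entered several genes. Groups without a shared peak included Casp1 with Casp12, and Tnfrsf1b with Tnfrsf8, which encode receptors of the tumour necrosis factor family with ratios of 0.645 and 0.571. The neighbours Pigr and Fcamr, both receptors for immunoglobulins, had 0.430 and 0.615 and shared a peak.

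Set beside vehicle after scaling of all libraries to a common median, vehicle lay nearer to lactate than to UK5099 for 271 of the 316 lower genes, 85.8%, and for 154 of the 228 higher genes, 67.5%, against 59.2% of all genes that passed the filter. The filter itself uses vehicle. With a filter on the mean of the treated libraries alone the shares were 84.0% of 306 lower genes, 70.6% of 255 higher genes and 59.1% of all. The genes were chosen on the UK5099 and lactate heights that enter these distances, so the shares are a description. Vehicle lay between the treated libraries for 195 lower and 150 higher genes. It was above both treated libraries at 115 lower genes and below both at 58 higher genes. UK5099 was the shallowest library and had the fewest stacked reads per gene, and the part of depth in these shares was not tested.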

How the data were processed

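ATAC-seq was carried out by the study's sequencing provider. Reads were aligned with BWA, duplicates and ambiguous reads were removed, reads were extended and stacked in bins, peaks were called per library with MACS (MACS3 in the submitters' processing notes, build mm10), merged into regions and assigned to genes. The authors deposited, per gene and library, a signal column with the average peak height over the merged regions, beside region numbers and called peak positions. The merged regions also used a library that is not analysed here. Whether reads were shifted for the transposase is not stated in the paper, labels or headers.

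Heights times regions were whole multiples of 1 step per library, within 0.05, for at least 99.99% of genes, which gave stacked reads. These are coverage at a maximum, so no count test was run. Positions were computed from gene starts and distances, sequences read from GRCm38.p6, and transcript starts taken from GENCODE M21. Motifs were counted on both strands.

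Named were the fixed lineage and metabolic genes, the 15 genes on each side with the interval farthest from 1 (shared values once, predicted models passed over), list extremes and genes next to the thresholds. Some genes that this rule names are not reported here. The gene lists and members were chosen with earlier results of these data known. The computation was tested on simulated data. Python 3.11.15, numpy 2.4.6, pandas 2.3.3, scipy 1.17.1, pysam 0.24.0 and matplotlib 3.10.9 were used.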

Additional observations from a re-analysis of the deposited data

How the results depend on the processing

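With 1 library a side no setting can show the spread between cultures, and the low depth of UK5099 limits weak peaks most. Against 228 higher and 316 lower genes, no height floor gave 763 and 939, a floor at the median height 98 and 120, 29.7 (0.5 of the median height) added to both heights 41 and 61, thresholds of 2 and 0.5 gave 27 and 46, intervals wholly beyond the thresholds 30 and 47, and only genes with 1 merged region 116 and 127. The share of higher genes among those past either threshold, 41.9%, was 34.7% without division by the median ratio, 37.0% at thresholds of 2 and 0.5 and 47.7% among genes with 1 region. After lactate was thinned to the depth of UK5099, 272 and 368 genes passed, of which 185 and 276 also passed before. Of 477 list medians 19 left their binomial interval. Of 437 ratios of named genes under the alternatives, 0 reversed. Only a ratio past a threshold could be labelled reversed, and most settings left ratios unchanged or shifted all alike. The 0 was thus nearly fixed in advance and is no sign of stability. The 26 ratios that left their counting interval did so in each case with 29.7 added. That addition brought Krt18 to 0.574 and Sprr3 to 2.09. With the number of called peaks in place of the height, the inflammasome median was 1, and those of desmosome genes, basal markers and suprabasal and hair keratins lay below the typical gene, at 0.962, 0.933 and 0.708. Squamous genes with 1 region had a median of 0.912. No paired analysis was possible because each condition has 1 library.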
